A study of Macaca mulatta with 16 samples.

Results

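The miR-25/92 family is a group of miRNAs that carry the same seed, the short stretch near the 5′ end of a miRNA that pairs with its target mRNAs. Its members were chosen by name in the miRNA table: every mature miRNA called miR-25, miR-32, miR-92a, miR-92b or miR-363, whichever arm of the hairpin it comes from. This gave 8 of the 339 listed miRNAs. The 5 that carry the shared seed were miR-92a-3p, miR-25, miR-92b-3p, miR-363-3p and miR-32-5p. The other 3, miR-92b-5p, miR-32-3p and miR-363-5p, come from the opposite arm of the same hairpins and do not carry it. The column for miR-25 names no arm.

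A miRNA hairpin is cut from a longer primary transcript, and usually 1 of its 2 arms is kept in the silencing complex, where it lowers the translation and stability of mRNAs that match its seed. Most of this family is made from polycistronic transcripts, which carry several hairpins of different seeds. miR-92a comes from the miR-17-92 cluster and from its copy, the miR-106a-363 cluster, which also holds miR-363, and miR-25 comes from the miR-106b-25 cluster. miR-92b and miR-32 have loci of their own. In human and mouse cells the clusters are switched on by MYC and E2F factors, are abundant in dividing progenitors and act on inhibitors of growth and survival such as BCL2L11 and CDKN1C, while in mouse cortex miR-92b restrains the intermediate progenitor factor EOMES (Tbr2). In the RefSeq annotation of the rhesus assembly T2T-MMU8v2.0, MIR25 lies inside MCM7, a helicase subunit gene, beside MIR93 and MIR106B. MIR32 lies inside TMEM245. MIR92B lies inside the annotated locus LOC144330955 and next to THBS3, a thrombospondin gene. MIR363 and 1 of the miR-92a loci, MIR92A-2, lie beside MIR106A, MIR18B, MIR20B and MIR19B-2.

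The samples were punches of retina from rhesus monkey (Macaca mulatta) fetuses at 50 days of gestation, with no treatment or genetic change. The temporal group (3 samples) came from the side that holds the presumptive fovea, the future site of sharpest vision, and the nasal group (3 samples) from the matching place across the optic nerve head. Small RNA was sequenced from all 6, and mRNA from the same samples. Each punch was bulk tissue, so fewer cells of a type and less RNA per cell cannot be told apart, and since the labels do not say that the samples came from separate animals, p-values measure only the spread between these samples.

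Values were TPM rounded to whole numbers. The listed miRNAs summed to between 309924 and 353553 TPM in temporal libraries and between 178383 and 358430 TPM in nasal libraries, and the read depth of a library was not given with them. Because the sums differed, temporal and nasal libraries were compared after rescaling by median ratios, which moved the median log2 difference of all tested miRNAs to 0.01, against 0.52 in the deposited values. The 6 miRNA markers of retinal neurons and progenitors, among them miR-9-5p and miR-7, were all listed. In deposited values they summed to between 51746 and 61966 TPM in temporal libraries and between 18608 and 51782 TPM in nasal libraries. After rescaling, 2 of the 6 were called higher in temporal samples and 0 lower, against 13.4% and 14.8% of all tested miRNAs. The 2 were miR-182 (limma adjusted p = 0.0251) and miR-96 (limma adjusted p = 0.0363). Nasal replicate 2 stood apart in markers of some other tissues. It held 551 TPM of the endothelial miR-126, against 21 to 42 TPM in temporal libraries and 24 and 25 TPM in the other nasal libraries. It also held 488 TPM of the lens and corneal miR-184, against 2 to 26 TPM in temporal libraries and 3 and 20 TPM in the other nasal libraries. The listed markers of mural cells and mesenchyme summed to 330 TPM in it, against 18 to 24 TPM in temporal libraries and 9 TPM in each other nasal library. Its listed muscle marker, at 111 TPM, lay within the 77 to 129 TPM of temporal libraries. Its markers of pigment epithelium and ciliary margin summed to 9145 TPM, within the 6223 to 9920 TPM of temporal libraries.

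The family was abundant in both regions, and its members kept 1 order in every library. Its shared-seed members together made up 9.60%, 12.2% and 10.6% of all listed TPM in temporal libraries 1, 2 and 3, and 9.23%, 12.2% and 12.7% in nasal libraries 1, 2 and 3. The regions overlapped, and an exact permutation test, two-sided, gave p = 0.7, where 3 libraries against 3 cannot give less than 0.1. From the highest to the lowest, the order was miR-92a-3p, miR-25, miR-92b-3p, miR-363-3p, miR-92b-5p, miR-32-5p, miR-32-3p and miR-363-5p in all 6 libraries. The steps were not equally wide. The TPM ratio of miR-25 to miR-92b-3p was between 2.32 and 3.81 in temporal libraries, against 1.04 to 2.34 in nasal libraries, and in nasal replicate 2 these neighbours were almost level.

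**Figure D1:**
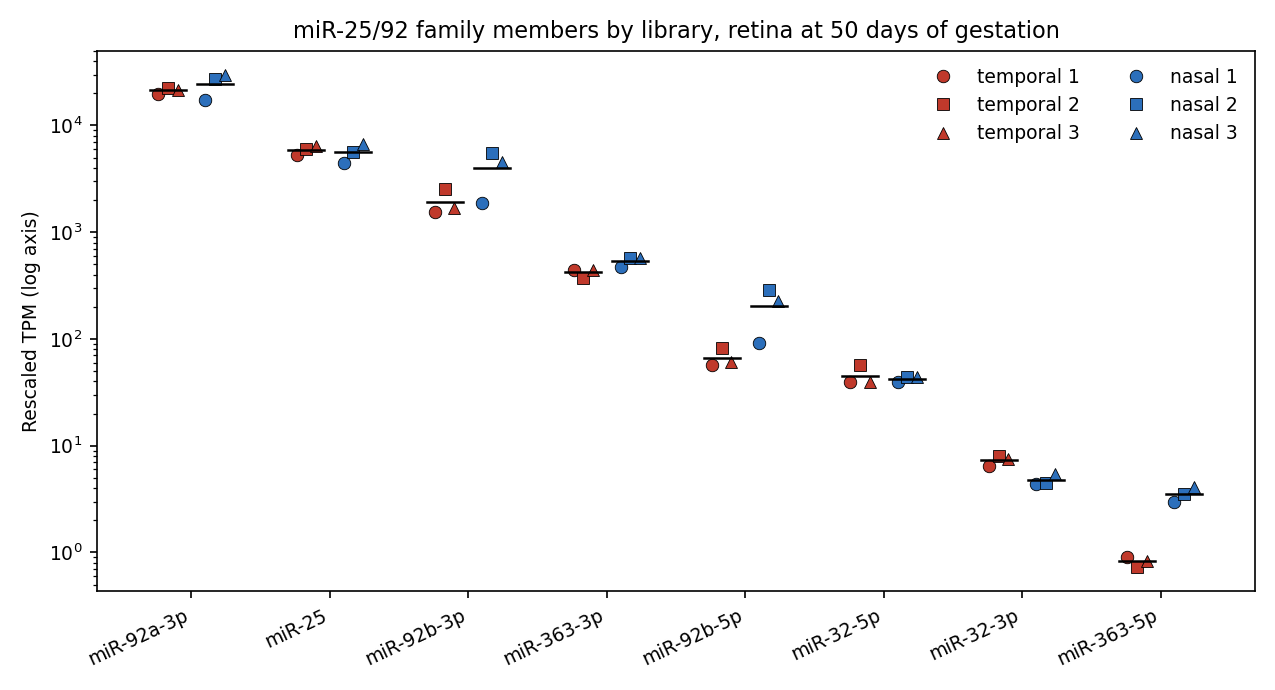
Rescaled TPM of the 8 members (log axis) in each of the 3 temporal (red) and 3 nasal (blue) libraries, with marker shape for the replicate number and a bar at the mean of a region. miR-92b-5p, miR-363-3p and miR-363-5p are lower in every temporal library than in any nasal library, miR-32-3p is higher, and the other 4 members overlap.

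Of the 7 members abundant enough to test, 1 passed an adjusted p of 0.05 in limma. miR-92b-5p fell in the temporal retina, and no member rose. Among all 283 tested miRNAs, 80 passed, or 28.3%, of which 42 were lower in temporal samples (14.8%) and 38 higher (13.4%), so the family's share of calls was no greater than that of the table. The median log2 difference, temporal minus nasal, was −0.18 over the 7 members. On rescaled values, 2 of the 7 were lower in every temporal library than in any nasal one, against 23% of all tested miRNAs. The 1 member higher in every temporal library, against 21.9% of all tested miRNAs, was miR-32-3p. That member was abundant enough to be tested only through its temporal libraries, so its place in this count rests partly on the filter.

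miR-92b showed the widest regional difference in the family, and both of its arms were on the nasal side. miR-92b-5p, the less abundant arm, had 63, 111 and 73 TPM in temporal libraries, against 62, 321 and 168 TPM in nasal libraries. After rescaling these became 57.6, 81.4 and 60.9 in temporal libraries, with a mean of 66.6 ± 12.9, against 91.2, 286 and 229 in nasal libraries, with a mean of 202 ± 100.2 (SD, n = 3 each). Nasal replicates 2 and 3 were high and nasal replicate 1 lay just above the temporal libraries, so the regions did not overlap on this scale, although in deposited TPM they did. The log2 difference was −1.45 (SE 0.39, limma adjusted p = 0.0311), or 2.73-fold higher in the nasal retina.

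The call for miR-92b-5p depended on single libraries and on the scaling. Its log2 difference ran from −1.95 to −1.12 as each library was left out, and the limma adjusted p was 0.124 without temporal replicate 1, 0.0909 without temporal replicate 3 and 0.103 without nasal replicate 3. Without nasal replicate 2, the library with markers of other tissues, the log2 difference was −1.12 (adjusted p = 0.0415), and the call stayed, in a fit where 20.1% of miRNAs passed. In deposited TPM with no rescaling it was −0.90 (adjusted p = 0.197).

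miR-92b-3p is the arm with the family seed and the third most abundant member. It had 1677, 3499 and 2031 TPM in temporal libraries, against 1286, 6148 and 3353 TPM in nasal libraries. Rescaled, it averaged 1931 ± 556 in temporal libraries and 3981 ± 1866 in nasal libraries (SD, n = 3 each). Nasal replicates 2 and 3 stood above all temporal libraries, whereas nasal replicate 1, at 1891, lay below temporal replicate 2, at 2567. The log2 difference was −0.94 (SE 0.39, 95% interval −1.83 to −0.06) and did not pass the test in limma (adjusted p = 0.103). With the replicate number as a block the same difference passed (adjusted p = 0.0232), as 31.8% of all tested miRNAs did in that fit. Without nasal replicate 1 it was −1.41 (adjusted p = 0.00201). With no rescaling it was −0.38 (adjusted p = 0.578), and without nasal replicate 2 it was −0.64 (adjusted p = 0.209).

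Both arms of miR-92b varied together over the 6 libraries, with a Pearson r of 0.97 on rescaled log2 values. As a description only, since the 6 points share their libraries and their regional difference, the other miRNAs most like miR-92b-5p among 160 abundant miRNAs were miR-211 (r = 0.98) and let-7e-5p (r = 0.97). Those most like miR-92b-3p were miR-211 (r = 0.96) and miR-485-3p (r = 0.94). miR-211 is a miRNA of pigment epithelium. Of the 3 listed markers of pigment epithelium and ciliary margin, 0 were higher and 1 was lower in temporal samples. The 1 called marker, miR-204-3p, had a log2 difference of −1.39 (limma adjusted p = 0.00650), while miR-211 had −0.68 (adjusted p = 0.0874) and miR-204-5p had −0.48 (adjusted p = 0.0687). The summed TPM of the 3 was between 6223 and 9920 in temporal libraries and between 5562 and 9145 in nasal libraries. The red blood cell miRNA miR-486-5p was also on the nasal side. It had 46, 48 and 57 TPM in temporal libraries, against 41, 119 and 68 TPM in nasal libraries. After rescaling it was lower in every temporal library than in any nasal one, as were 23% of all tested miRNAs. Nasal replicates 2 and 3 were its highest libraries. Among temporal libraries its rescaled values were 42.0, 35.2 and 47.6, lowest in temporal replicate 2, where both rescaled miR-92b arms were highest. miR-486-5p fell by 1.01 on the log2 scale (limma adjusted p = 0.0220), and by 0.84 without nasal replicate 2 (adjusted p = 0.0447). The adjusted p was 0.0815, 0.0717 and 0.0841 without temporal replicate 1, temporal replicate 2 and nasal replicate 3. The 2 listed red cell markers of 4 summed to between 47 and 58 TPM in temporal libraries and between 42 and 123 TPM in nasal libraries. In the authors' mean mRNA values, the fetal globin gene HBG2 had 0.320 CPM in temporal and 5.92 CPM in nasal samples. HBA was listed at 0 in both. The collagen gene COL3A1 was listed at 0 in temporal and had 13.6 CPM in nasal samples. The mesenchyme gene PDGFRB had 74.5 CPM in temporal and 100.4 CPM in nasal samples. The pigment epithelium gene PMEL had 12.8 CPM in temporal and 23.8 CPM in nasal samples. RPE65, of the same tissue, was under 5 CPM and slightly higher in temporal samples. The endothelial gene KDR was also higher there, with 854 CPM in temporal and 582 CPM in nasal samples. COL1A1, TYR, MLANA, CDH5 and PECAM1, all under 5 CPM, were higher in nasal samples. The part of these markers in the miR-92b difference was not tested.

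miR-92a-3p was the most abundant member, between the first and the fifth of all miRNAs in each library, and its regions overlapped. It had 21725, 30786 and 25626 TPM in temporal libraries, against 11824, 30381 and 21622 TPM in nasal libraries. Rescaled, it averaged 21272 ± 1367 in temporal libraries and 24654 ± 6409 in nasal libraries (SD, n = 3 each). Nasal replicate 1 was the lowest library and nasal replicates 2 and 3 the highest on that scale. The log2 difference was −0.18 (SE 0.22, 95% interval −0.68 to 0.33, limma adjusted p = 0.595), and it was 0.38 (adjusted p = 0.458) with no rescaling. Without nasal replicate 1 it was −0.41 (adjusted p = 0.0488). Reads of the miR-92a loci give the same mature miRNA, so its value is a sum over them.

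miR-363-3p, the other seed-bearing product of the miR-106a-363 cluster, was steady among the temporal samples in deposited TPM only. It had 486, 508 and 529 TPM in temporal libraries, against 320, 649 and 421 TPM in nasal libraries. Rescaled, it averaged 419 ± 40.5 in temporal libraries and 541 ± 61.1 in nasal libraries (SD, n = 3 each), and every temporal library was below every nasal one. Its log2 difference of −0.37 (SE 0.15) did not pass the test (limma adjusted p = 0.106). With no rescaling it was 0.19 (adjusted p = 0.638), and without nasal replicate 1 it was −0.46 (adjusted p = 0.0488).

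miR-25 was the second most abundant member, and its regions overlapped. It had 5819, 8131 and 7748 TPM in temporal libraries, against 3006, 6399 and 4914 TPM in nasal libraries. Rescaled, it averaged 5916 ± 574 in temporal libraries and 5609 ± 1145 in nasal libraries (SD, n = 3 each). Its log2 difference was 0.09 (SE 0.19, 95% interval −0.33 to 0.52, limma adjusted p = 0.748), and −0.07 without nasal replicate 1. With quantile normalization it was 0.46 (adjusted p = 0.0714), and with no rescaling 0.65 (adjusted p = 0.159).

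miR-32 was the scarcest of the seed-bearing hairpins. Its seed-bearing arm, miR-32-5p, had 43, 77 and 47 TPM in temporal libraries, against 27, 49 and 32 TPM in nasal libraries. Rescaled, it averaged 45.0 ± 9.95 in temporal libraries and 42.3 ± 2.28 in nasal libraries (SD, n = 3 each), and the values overlapped, with temporal replicate 2 the highest. Its log2 difference was 0.07 (SE 0.21, 95% interval −0.41 to 0.54, limma adjusted p = 0.848). The opposite arm, miR-32-3p, had 7, 11 and 9 TPM in temporal libraries, against 3, 5 and 4 TPM in nasal libraries. Every temporal library was above every nasal one, as for 41.7% of tested miRNAs in deposited TPM. miR-32-3p reached the mean of 5 TPM required for the test only through its temporal libraries, since no nasal library was above 5 TPM. After rescaling it averaged 7.32 ± 0.851 in temporal libraries and 4.77 ± 0.592 in nasal libraries (SD, n = 3 each), still without overlap, and the log2 difference was 0.53 (SE 0.19, adjusted p = 0.0692). With no rescaling it was 1.00 and passed (adjusted p = 0.0222), in a fit where 77 miRNAs were called higher in temporal samples and 3 lower.

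miR-363-5p was listed at 1 TPM in each temporal library, against 2, 4 and 3 TPM in nasal libraries. Its mean was under the 5 TPM required for the test. In the fit with no such filter the log2 difference was −1.30 (SE 0.22, limma adjusted p = 0.00670), where 29.5% of 339 miRNAs passed. At these levels rounding to whole TPM is as large as the values themselves.

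**Figure D2:**
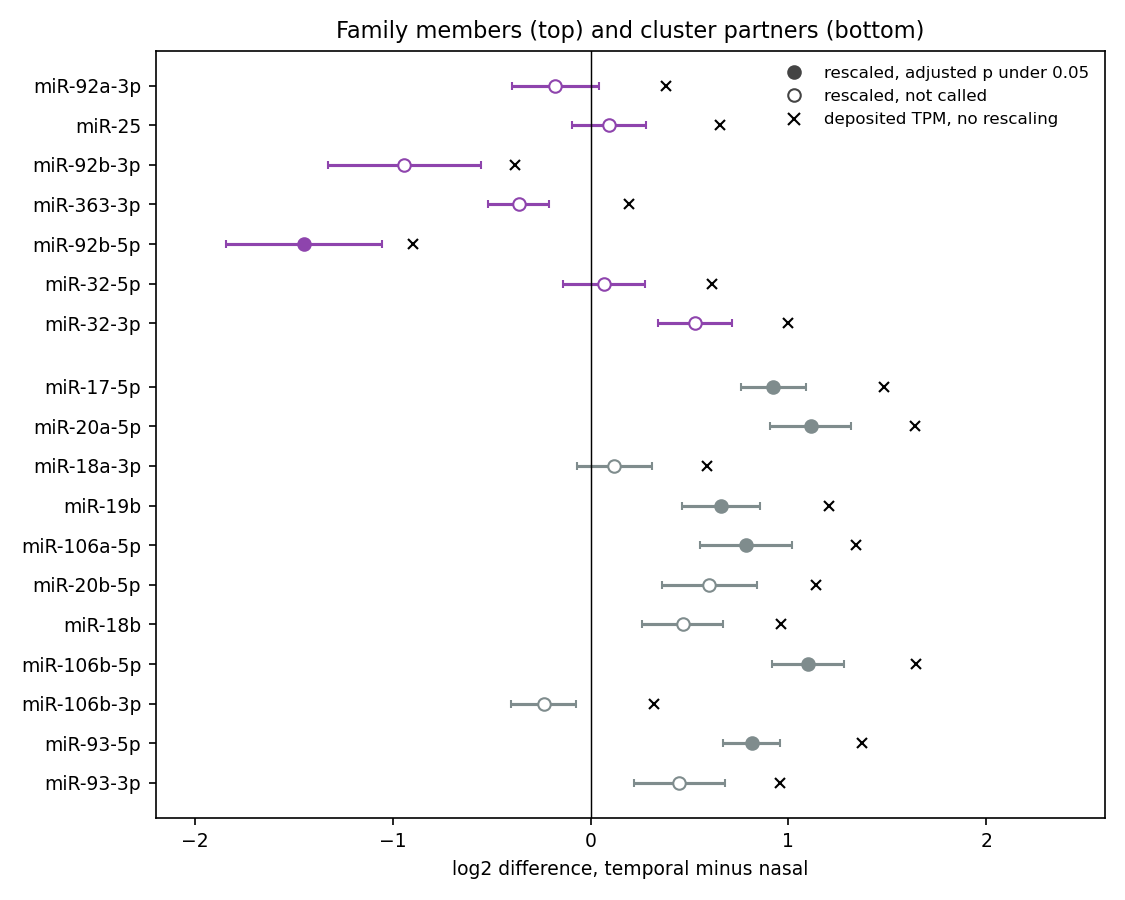
log2 difference, temporal minus nasal, of the 7 tested members (purple, top) and 11 tested cluster partners (grey, bottom) after rescaling, with bars of 1 SE. Filled circles passed a limma adjusted p of 0.05, and crosses give the deposited TPM without rescaling. miR-92b-5p at −1.45 is the only filled member, against 6 filled partners, all above 0.

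The balance between the arms of a hairpin does not depend on the scaling of a library, apart from the pseudocount. In all 3 hairpins of the family with both arms listed, the regions did not overlap, as in 57.3% of all 82 hairpins so listed. The TPM of miR-92b-3p was 26.6, 31.5 and 27.8 times that of miR-92b-5p in temporal libraries, against 20.7, 19.2 and 19.96 times in nasal libraries. The seed-bearing arm thus held a greater part of the hairpin's reads in every temporal library. The log2 difference between arms, 5p minus 3p, was −0.51 in temporal relative to nasal samples (SE 0.21) and just missed the threshold (limma adjusted p = 0.0563). It passed with the replicate block (adjusted p = 0.0262) and with no filter on low values (adjusted p = 0.0318). Among all 62 hairpins tested, 29 passed, or 46.8%, with 19.4% lower in temporal samples, and 56.5% passed with the block, so arm balance differed between the regions in much of the table.

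The arms of miR-363 stood further apart in the temporal retina. The ratio of miR-363-3p to miR-363-5p was 486, 508 and 529 in temporal libraries, against 160, 162 and 140.3 in nasal libraries, and rests on 1 to 4 TPM of the scarce arm. With no filter on low values the log2 difference, 5p minus 3p, was −0.94 (limma adjusted p = 0.00673), where 47.6% of hairpins passed. For miR-32, where the seed lies in the 5p arm, the balance went the other way. The ratio of miR-32-5p to miR-32-3p was 6.14, 7 and 5.22 in temporal libraries, against 9, 9.80 and 8 in nasal libraries. The log2 difference was −0.46 (SE 0.22, adjusted p = 0.0845) and passed with the replicate block (adjusted p = 0.0270). With a pseudocount of 5 it was −0.27 (adjusted p = 0.262), since miR-32-3p had only 3 to 11 TPM.

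Because miRNAs of 1 seed can pair with many of the same mRNAs, their TPM can be added into a common pool. miR-92a-3p held most of it, with 73.0%, 71.6% and 71.2% in temporal libraries, against 71.8%, 69.6% and 71.3% in nasal libraries (exact permutation p = 0.5, two-sided). miR-25 held 19.6%, 18.9% and 21.5% in temporal libraries, against 18.3%, 14.7% and 16.2% in nasal libraries. Every temporal library was above every nasal one, with a difference of 3.63 percentage points, and the exact permutation p was 0.1, the smallest this design allows. miR-92b-3p held 5.64%, 8.14% and 5.64% in temporal libraries, against 7.81%, 14.1% and 11.1% in nasal libraries. Temporal replicate 2 overlapped nasal replicate 1, and the exact permutation p was 0.2. miR-363-3p held between 1.18% and 1.63% in temporal libraries and between 1.39% and 1.94% in nasal libraries. miR-32-5p held less than any of them, up to 0.179% in temporal libraries and up to 0.164% in nasal libraries. None of the 5 shares passed after adjustment over the 5 (adjusted exact permutation p = 0.5 for each).

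**Figure D3:**
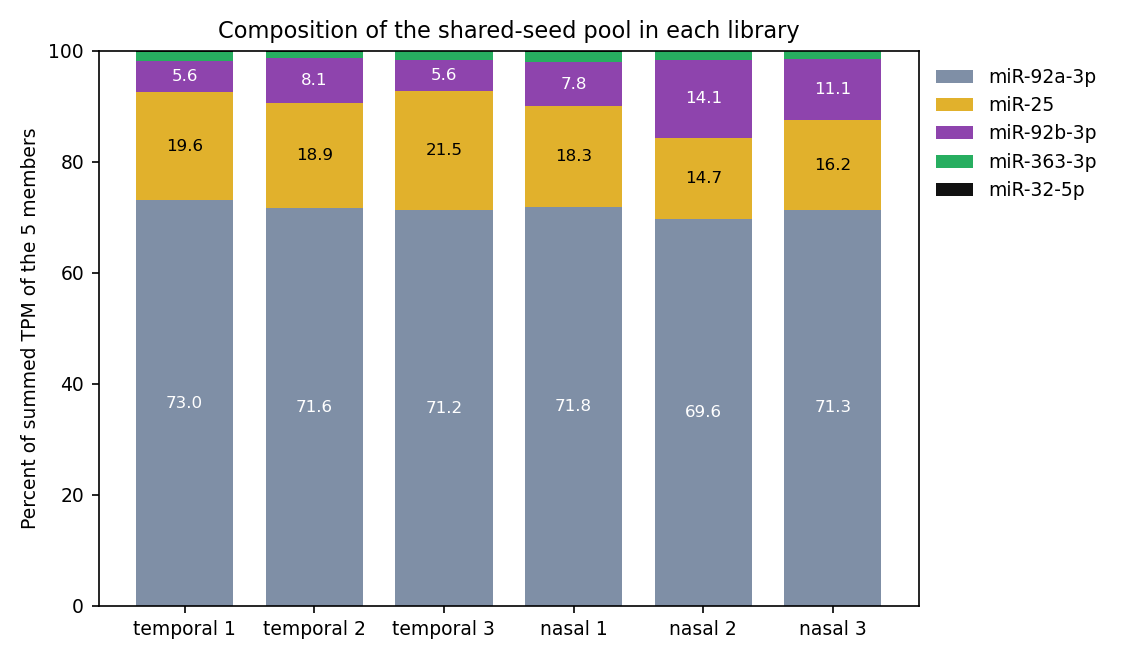
Percent of the summed TPM of the 5 seed-bearing members that each one held, in the 3 temporal libraries and the 3 nasal libraries. miR-92a-3p holds 69.6% to 73.0% everywhere, miR-25 holds at least 18.9% in each temporal library, against at most 18.3% in nasal libraries, and miR-92b-3p reaches 14.1% in nasal replicate 2.

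The miRNAs made from the same primary transcripts as miR-92a, miR-363 and miR-25 were mostly on the temporal side. Of 13 listed partners from the 3 clusters, 11 could be tested, and 6 rose in the temporal retina and 0 fell in limma, against 13.4% and 14.8% of all tested miRNAs. Their median log2 difference was 0.66, against −0.18 for the tested members and 0.01 for all miRNAs. That member median includes the arms of miR-92b and miR-32, which come from loci outside the clusters. The tested members from the clusters had −0.18 (miR-92a-3p), −0.37 (miR-363-3p) and 0.09 (miR-25). Those that rose were miR-106b-5p (1.10, adjusted p = 0.00507), miR-20a-5p (1.11, adjusted p = 0.00676), miR-17-5p (0.92, adjusted p = 0.00634), miR-93-5p (0.81, adjusted p = 0.00634), miR-106a-5p (0.79, adjusted p = 0.0372) and miR-19b (0.66, adjusted p = 0.0388). Most of these carry the seed of miR-17, which in human and mouse cells acts on cell cycle inhibitors. The 5 that did not pass had log2 differences between −0.24 for miR-106b-3p and 0.60 for miR-20b-5p. With no rescaling 9 of the 11 passed, all higher, and miR-106b-3p changed sign to 0.32. As each library was left out, an alternative chosen after the data were seen, between 4 and 6 partners rose and 0 fell, with 5 higher without nasal replicate 2. miR-17-5p and miR-106a-5p, and likewise miR-20a-5p and miR-20b-5p, are nearly identical, so reads may be split between them.

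Each member was then set against its partners within each library, which needs no scaling. miR-92a-3p was 5.01, 5.56 and 5.62 log2 units above miR-17-5p in temporal libraries, against 6.12, 6.64 and 6.73 in nasal libraries. The regions did not overlap, and the gap was −1.10 log2 units in temporal relative to nasal samples. The gap of miR-92a-3p to its partners was lower in every temporal library for 4 of 7, the others being miR-20a-5p (−1.26), miR-106a-5p (−0.96) and miR-20b-5p (−0.76). Of all other miRNAs, 14.5% stood higher relative to miR-92a-3p in every temporal library.

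miR-363-3p was lower in every temporal library relative to each of its 4 partners, by −0.77 to −1.15 log2 units. Relative to miR-106a-5p it was at 0.06, −0.17 and 0.38 log2 units in temporal libraries, against 1.56, 1.08 and 1.08 in nasal libraries, so the pair was close to level in the temporal libraries. Of all other miRNAs, 32.3% stood higher relative to miR-363-3p in every temporal library. miR-25 was lower relative to miR-106b-5p (−0.99) and miR-93-5p (−0.72), with no overlap, where 7.45% of all other miRNAs stood higher relative to miR-25 in every temporal library. It was higher relative to miR-106b-3p, the opposite arm, by 0.33, where 26.6% of other miRNAs stood lower.

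Within the family itself, 3 of 6 members changed place relative to miR-92a-3p without overlap of the regions. miR-92b-5p was lower by −1.28 log2 units in temporal samples, and miR-25 and miR-32-3p were higher by 0.27 and 0.62. miR-32-3p was abundant enough to be tested only through its temporal libraries. With a pseudocount of 5 its difference from miR-92a-3p was 0.25 (exact permutation p = 0.4), so its place among those without overlap rests on the pseudocount. Of the other miRNAs set against miR-92a-3p, 15.2% were lower and 14.5% higher in every temporal library. Over all 21 such differences, between members or between a member and a partner, 14 did not overlap, 11 of them lower and 3 higher in temporal samples. Each of the 14 had an exact permutation p of 0.1, the smallest possible, and 0.15 after adjustment over the 21. Of all other miRNAs, 26.6% stood lower and 7.45% higher relative to miR-25 without overlap, and 11.3% lower and 32.3% higher relative to miR-363-3p. The 21 are not separate results, since miR-92a-3p enters many of them and the 4 partners of miR-363-3p were also set against miR-92a-3p.

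**Figure D4:**
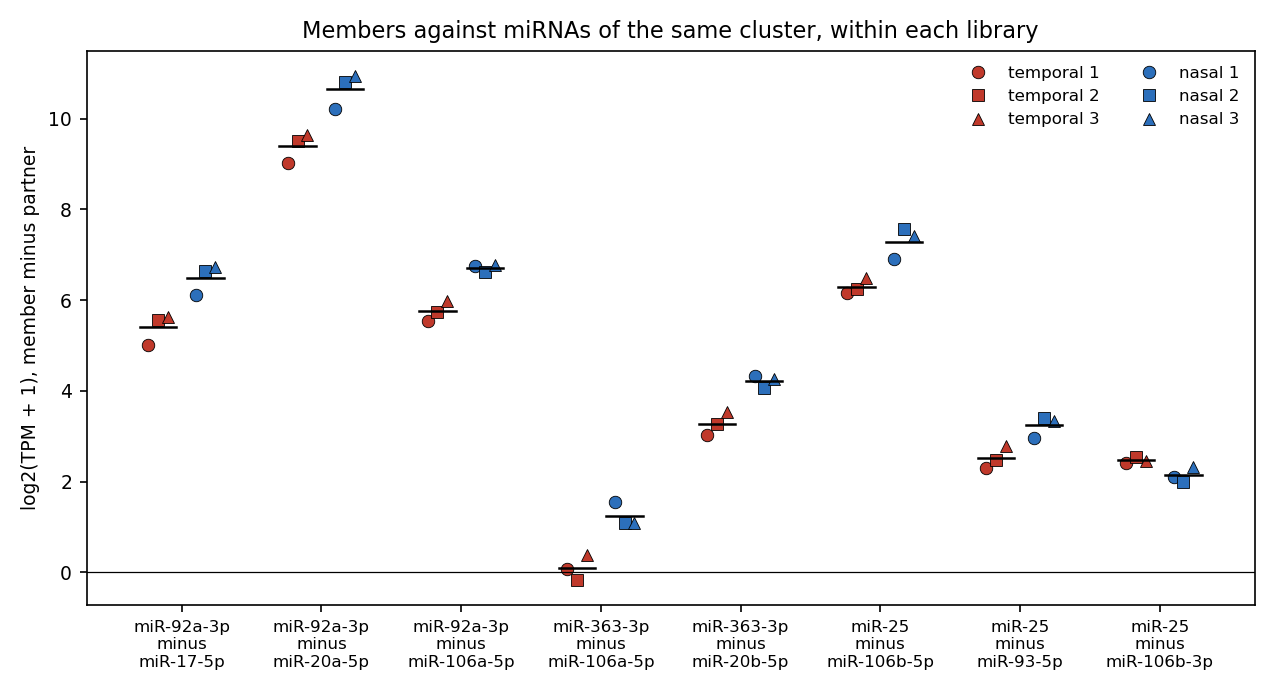
log2(TPM + 1) of a member minus that of a miRNA of the same or a copied cluster, in each of the 3 temporal (red) and 3 nasal (blue) libraries, with a bar at the mean. In the first 7 pairs every temporal library lies below every nasal one, by 0.72 to 1.26 on average, and in the last, miR-25 minus miR-106b-3p, it lies above by 0.33. Only pairs without overlap were drawn, and not all of them. miR-92a-3p minus miR-20b-5p, and miR-363-3p minus miR-18b and miR-19b, also without overlap, are not shown. Those that overlapped, miR-92a-3p minus miR-18a-3p, miR-19b and miR-18b, and miR-25 minus miR-93-3p, are not shown either.

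Genes that host, switch on or answer to the family were read from the mRNA of the same samples. The mRNA table gives only the authors' mean of each region at 50 days, with no spread, so nothing was tested, and 1.06% of 11154 genes with at least 5 CPM were past 2-fold. MCM7, which holds the miR-106b-25 cluster, had 128 CPM in the temporal retina and 154 CPM in the nasal retina. TMEM245, the host of miR-32, had 148 CPM in temporal and 139.6 CPM in nasal samples, and THBS3, beside miR-92b, had 115 CPM in temporal and 146 CPM in nasal samples. These hosts and neighbours differed by less than 2-fold.

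Of the 5 activators of the clusters, 0 were past 2-fold. MYC had 15.9 CPM in temporal and 21.9 CPM in nasal samples, and MYCN, the form used by many neural progenitors, had 112 CPM in temporal and 110.1 CPM in nasal samples. E2F1, E2F2 and E2F3 drive entry into DNA synthesis. E2F1 had 32.5 CPM in temporal and 41.1 CPM in nasal samples, E2F2 had 35.6 CPM in temporal and 42.3 CPM in nasal samples, and E2F3 had 77.8 CPM in temporal and 69.1 CPM in nasal samples.

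Of 12 published targets of the seed in human or mouse cells, 11 were matched, 9 reached 5 CPM in at least 1 region and 0 were past 2-fold. Their median log2 ratio was 0.06, against 0.01 for all genes. The extremes were ITGA5, an integrin subunit, with 4.08 CPM in temporal and 7.80 CPM in nasal samples, and FBXW7, a ubiquitin ligase subunit that degrades MYC, with 604 CPM in temporal and 433 CPM in nasal samples. BCL2L11, which promotes cell death, had 17.7 CPM in temporal and 17.9 CPM in nasal samples. EOMES had 30.3 CPM in temporal and 30.2 CPM in nasal samples, and KLF2 was listed at 0 in both regions. The retinal progenitor gene PAX6 was present in both regions, with 776 CPM in temporal and 803 CPM in nasal samples.

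**Figure D5:**
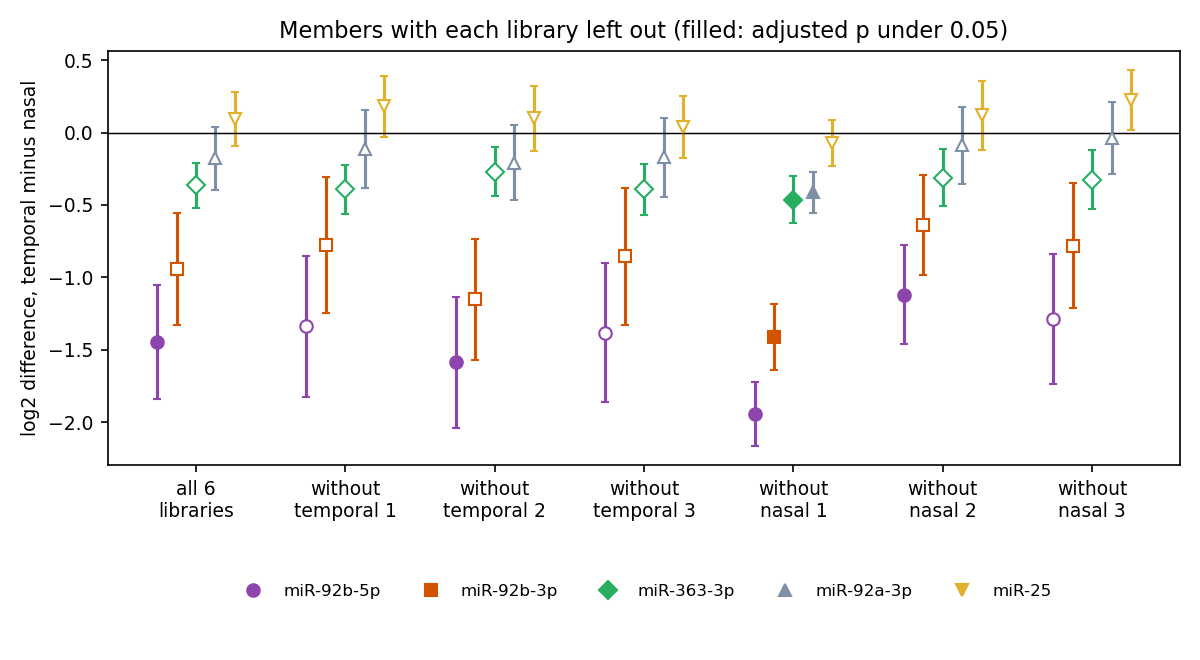
log2 difference, temporal minus nasal, of 5 members with all 6 libraries and with each library left out, with bars of 1 SE; filled markers passed a limma adjusted p of 0.05. miR-92b-5p stays between −1.95 and −1.12 but is filled in only 4 of the 7 fits, and without nasal replicate 1, 4 members are filled.

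Nasal replicate 1, the library with the lowest sum of listed TPM, was the 1 library whose removal gave more called members. Without it, 4 members were lower in temporal samples in limma: miR-92b-5p (−1.95, adjusted p = 0.000783), miR-92b-3p (−1.41), miR-363-3p (−0.46) and miR-92a-3p (−0.41). In that fit 37.8% of all tested miRNAs passed, 20.8% lower in temporal samples and 17% higher. Nasal replicate 1 was the nasal library nearest to the temporal ones for miR-92b-5p, miR-92b-3p and miR-363-3p after rescaling. Leaving out temporal replicate 1, temporal replicate 3 or nasal replicate 3 gave 0 called members.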

How the data were processed

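Small RNA libraries of 3 temporal and 3 nasal punches were mapped to miRBase by the authors, who deposited TPM rounded to whole numbers, treated here as a score. For mRNA at 50 days the authors deposited 1 signal for each region, their mean in CPM units. Which aligner was used for small RNA, and how reads matching several miRNAs were assigned, was not given in the sources used here. Authors' averages, fold changes and p-values from edgeR, which the submitters' processing notes name, and mRNA at later ages were not used.

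miRNAs with a mean of at least 5 TPM were rescaled by median ratios and compared as log2(value + 1) with limma 3.58.1, run under R 4.3.3 with a trended eBayes prior, with Benjamini-Hochberg adjustment over all 283 and a threshold of 0.05, so fold changes of low miRNAs are understated. Arms were compared within a library in the same way. Exact permutation tests, two-sided, used SciPy 1.17.1. The fits were tested on simulated data.

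All members, all cluster partners and fixed lists of hosts, activators, targets and markers were named by rule (some genes that it names are not reported here), and these members and lists were chosen with earlier results of these data known. In an alternative fit the numbers in the sample titles were taken to pair temporal and nasal libraries, although no label says that a number marks 1 animal. Deviations from the region means correlated at 0.50, 0.16 and 0.12 between same-numbered libraries. Libraries of different numbers were not compared in this way, so these values cannot show that the numbers mark pairs. No 2 libraries were identical. Alternatives covered scaling, pseudocount, filter, block, trend and leaving out each library.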

Additional observations from a re-analysis of the deposited data

How the results depend on the processing

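Without rescaling, the log2 difference was 0.38 for miR-92a-3p and 0.19 for miR-363-3p, opposite in sign to the rescaled values, −0.90 for miR-92b-5p, no longer past the threshold, −0.38 for miR-92b-3p, 0.65 for miR-25, and 1.00 for miR-32-3p, now past the threshold, and 77 miRNAs were called higher and 3 lower in temporal samples. The median of all miRNAs was 0.52 in that fit, and the cause was not tested. With the replicate block, which pairs the numbers, 2 members passed, adding miR-92b-3p (−0.94, limma adjusted p = 0.0232), and the arm differences of miR-92b (−0.51) and miR-32 (−0.46) passed; it changed no other call of a member. With no filter on low values 2 members passed, adding miR-363-5p, and the arm difference of miR-92b was −0.51. As each library was left out, the calls ran from 35 to 107 miRNAs, from 12 to 48 higher and 23 to 59 lower in temporal samples, and from 0 to 4 members. The log2 difference ran from −1.95 to −1.12 for miR-92b-5p, −1.41 to −0.64 for miR-92b-3p, −0.46 to −0.27 for miR-363-3p, −0.41 to −0.037 for miR-92a-3p, −0.070 to 0.23 for miR-25 and −0.092 to 0.17 for miR-32-5p. The shared-seed pool ran from −1.67 to 0.081 percentage points of listed TPM. miR-92a-3p minus miR-18a-3p changed sign with a pseudocount of 5 (0.016) and ran from −0.54 to 0.011 as each library was left out, above 0 without nasal replicate 2. With a pseudocount of 5, 29 genes were past 2-fold at 50 days, fewer because a larger pseudocount shrinks low genes. TMM scaling, quantile normalization, other pseudocounts, a filter of 20 TPM and no trend each left miR-92b-5p the only called member. The read depth of each library was not given, so no counting limit could be set.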
